A study of Mus musculus with 2 samples.

Results

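The genes described here encode ligands and antagonists of the interleukin-1 (IL-1) family (Il1a, Il1b, Il1rn, Il18 and Il33) and 4 of the 5 subunits and the main inhibitor of the transcription factor NF-kappaB (Nfkb1, Nfkb2, Rela, Relb and Nfkbia). They were taken by gene name from the array design. All 10 genes were found, with 13 probes in all, among the 29923 gene names measured. IL-1alpha and IL-1beta bind a receptor that signals through the adaptor MyD88 and IRAK kinases to the IkappaB kinase complex. That complex marks IkappaB proteins for degradation and so frees NF-kappaB dimers to enter the nucleus. The IL-1 receptor antagonist encoded by Il1rn occupies the same receptor without signalling, and epithelia such as the urothelium are known sources of several of these ligands and of the antagonist.

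Gene expression was measured on 2 two-colour oligonucleotide arrays with RNA pooled from ureters of NMRI mouse embryos at E18.5. Each array compared a Pparg-cKO pool (Pax2-cre/+; Pparg(fl/fl)) with a control pool (Pparg(fl/?), the other allele not being specified), and the methods describe the controls as cre-negative littermates. All embryos thus carried at least 1 floxed Pparg allele, and in the cKO the Pax2-cre transgene was used to recombine Pparg in the ureteric epithelium. The pools hold RNA of whole ureters, mesenchyme and smooth muscle included. Pools were sorted by sex: replicate 1 was female and replicate 2 male. The dyes were exchanged between the arrays, so that sex, dye orientation and array cannot be told apart. The comparison asks which transcripts depend on PPARG, a nuclear receptor with roles in urothelial differentiation, in the fetal ureter.

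The direction of the ratios is likely rather than settled. By the dye labels, control RNA lay in the red channel (AlexaFluor647) of replicate 1 and in the green channel (AlexaFluor555) of replicate 2. The authors' value table, in which both columns carry a cKO versus control title, ran against these labels on each array. Set against the scanner's red over green log2 ratio across probes, it gave a Pearson correlation of 0.989 for replicate 1 and -0.993 for replicate 2. Higher and lower follow the authors' table. The study's stainings of sections, which do not depend on the array dyes, describe the mutant Pparg transcript and urothelial genes in this same direction. If the dye labels hold as written, higher and lower exchange places for every gene on both arrays, while sizes, counts and p-values stay as they are. The Pparg probe gave processed signals of 12357 in the cKO against 6113 in the control on the female array and of 12930 against 6688 on the male array. It was 1.96-fold higher in the cKO (adjusted p = 0.0373, limma). By the design the probe starts at base 1562 of the transcript. Its place relative to the exons flanked by loxP sites was not analysed here, and its signal is not used as a check of the deletion.

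The tissue matched its label, as uroplakins and smooth muscle genes gave strong signals in all 4 pools. Upk3a, a urothelial plaque protein, lay between 31198 and 41122 units, and Acta2, smooth muscle actin, between 44954 and 56274 units. Of 5 urothelial markers 4 were lower in the cKO on both arrays, and their summed signal was 42885 in the cKO against 64217 in the control for females and 47490 against 56581 for males. Of 12 leukocyte markers 3 were higher and 3 lower on both arrays, and 6 differed in direction. In such bulk pools, fewer cells of a type and less RNA per cell cannot be told apart.

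Among the 10 genes, Il1rn was the only one past the fold rule, which asks for a 1.5-fold difference in the same direction on both arrays where the stronger channel reaches a processed signal of 100. Il1rn met the signal minimum only in the cKO pools, in which it was high (124 and 141 units, against 61.3 and 78.3 in the controls), so that its count under this rule is a description. Of the 7 genes bright enough 1 passed, beside 1.84% of all bright genes, and nothing is read from this share. Over all bright genes 0.792% (111 genes) passed as higher in the cKO, and 147 genes passed as lower. In limma, 9 of the 10 genes were tested and 0 had an adjusted p under 0.05, while 0.751% of all genes tested did. An unadjusted p under 0.05 was found for 2 of them (Il1rn and Il18) and for 8.51% of all genes tested. Of the 9 genes, 4 were higher in the cKO on both arrays (Il1rn, Il18, Nfkb2 and Nfkbia), where 26.6% of all genes were. For Nfkb2 this rests on a female log2 ratio of 0.02, which ran from -0.08 to 0.03 over 6 other ways of processing. Only Il33 was lower on both, where 26.2% of all genes were, and the other 4 differed in direction between the arrays. The median log2 ratio of the 9 genes was 0.00 in females and 0.34 in males, beside -0.01 and 0.01 over all 22499 genes tested.

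**Figure D1:**
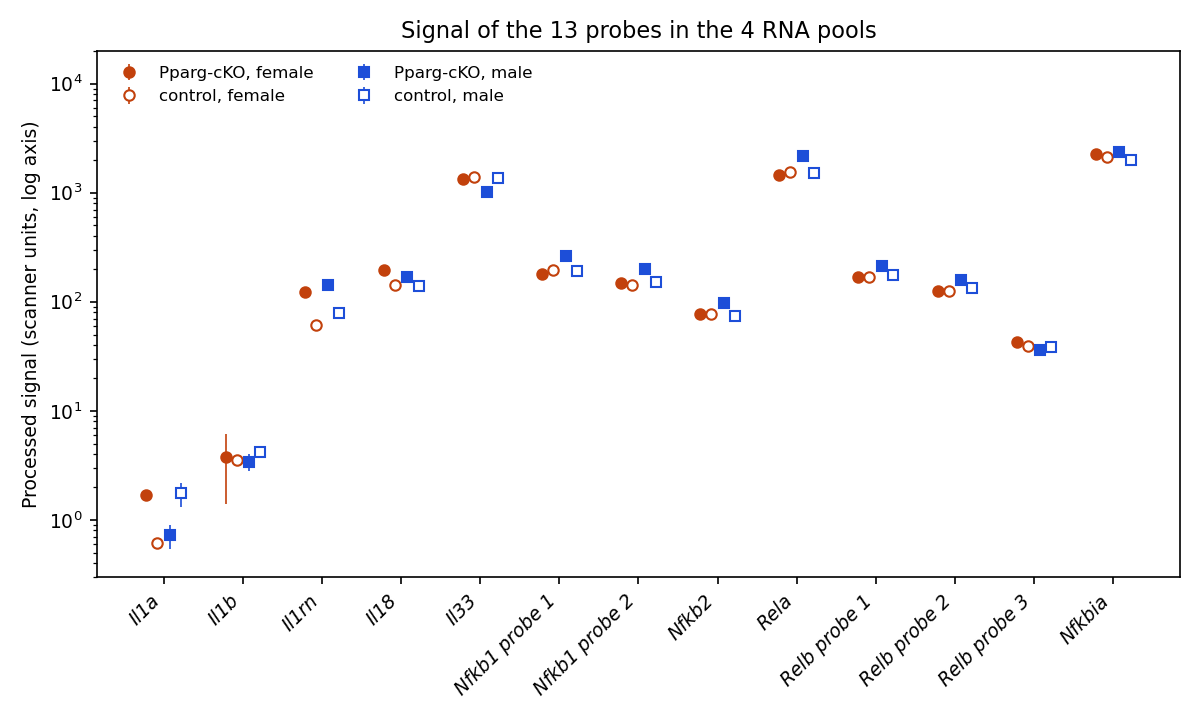
Processed signal of the 13 probes in the 4 RNA pools (log axis, scanner units, mean of the spots of a probe on one array with the SD over these spots). Filled symbols are Pparg-cKO and open symbols control, circles female and squares male. The Il1rn signal is higher in both cKO pools than in both control pools, while Il1a and Il1b stay under 5 units in every pool.

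Il1rn, whose product blocks the IL-1 receptor, was represented by 1 probe that the design assigns to 3 RefSeq transcripts of the gene. The probe covers chr2:24205094-24205153 on the plus strand of mm9. It is shown because the result for this gene rests on it alone, in lower case throughout since no part of it is singled out.
Il1rn probe: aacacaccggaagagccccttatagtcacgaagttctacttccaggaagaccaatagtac
The processed signal of Il1rn was 124 ± 6.49 units in the cKO and 61.3 ± 4.30 in the control on the female array (SD over 4 spots). On the male array it was 141 ± 10.1 against 78.3 ± 3.53. Both cKO pools thus lay above both control pools. How many of all genes do so was not counted, so nothing is read from this order. After background correction and loess normalisation, Il1rn had a log2 ratio of 0.81 in females and 0.78 in males, which averaged 0.80 ± 0.02 (SD, n = 2 arrays) or 1.74-fold. This fold is smaller than the ratios of the processed signals, 2.02 and 1.80, since the offset used in the background correction draws the ratios of dim probes towards 1. The 95% interval in limma ran from 0.53 to 1.06 on the log2 scale, and the adjusted p over all genes was 0.0610 (unadjusted p = 0.000568). Il1rn stood at rank 159 from the highest ratio of 22499 genes, which is from the lowest if the dye labels hold. When every probe was tested as a row of its own its adjusted p was 0.04997, and without the offset it was 0.00545 at a log2 ratio of 0.90. Over 6 alternatives its adjusted p in limma ran from 0.00545 to 0.533. With a signal minimum of 200 instead of 100, Il1rn no longer met the fold rule. Myeloid cells also make this antagonist. The 12 leukocyte markers summed to 16756 units in the cKO and 15068 in the control for females, and to 14570 and 15452 for males. A single probe, that of Itgam, made up 8505 of the 16756 units in the female cKO and 8099 of the 15452 in the male control. The part of leukocytes in the Il1rn ratio was not tested.

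The genes whose pair of ratios was closest to that of Il1rn were Tap1, Samd5 and Wif1, by Euclidean distance in the 2 log2 ratios over all genes tested. Tap1, a subunit of the peptide transporter for antigen presentation, had log2 ratios of 0.81 and 0.83, at a distance of 0.0512. Samd5 had ratios of 0.81 and 0.72, at a distance of 0.0605. Wif1, a secreted inhibitor of WNT ligands, had ratios of 0.75 and 0.77, at a distance of 0.0688. All 3 met the fold rule, and their adjusted p in limma was between 0.0580 and 0.0705. Genes chosen for ratios this close to those of Il1rn have similar folds and p-values by selection, so neither adds evidence.

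The IL-1 ligands proper were at or near background. Il1a gave signals of 1.69 and 0.609 units in the female cKO and control and of 0.721 and 1.75 in the male cKO and control, was not well above background in any pool, and was not tested. Il1b gave 3.80 and 3.51 units in the female and 3.41 and 4.20 in the male pools. It was well above background only in the green channel of each array, that is in the pools taken here as female control and male cKO. Its log2 ratios were 0.00 and -0.13 (mean -0.06 ± 0.09, SD, n = 2), and it did not pass the test (adjusted p = 0.952, limma). No difference in either transcript was detectable at these signals.

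Il18, which encodes a ligand released in active form by inflammatory caspases, was higher in the cKO on both arrays by a smaller margin. Its signal was 194 ± 18.8 against 142 ± 9.83 units in females and 167 ± 13.9 against 140 ± 8.35 in males. Both cKO pools lay above both control pools, from which nothing is read here either. The log2 ratios were 0.37 and 0.31, with a mean of 0.34 ± 0.04 (SD, n = 2) or 1.27-fold. The 95% interval was 0.07 to 0.61, but among all genes the difference did not pass the test (adjusted p = 0.439, limma; unadjusted p = 0.0220). Il33 encodes a nuclear cytokine that barrier cells release on damage. Its signal was 1341 ± 44.9 against 1379 ± 50.1 units in females, within the spread of the spots, and 1019 ± 28.0 against 1350 ± 23.2 in males. Only the male cKO pool stood apart from the other 3 pools. The log2 ratios were -0.03 and -0.36, and their mean of -0.20 ± 0.23 did not pass the test (adjusted p = 0.771, limma).

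**Figure D2:**
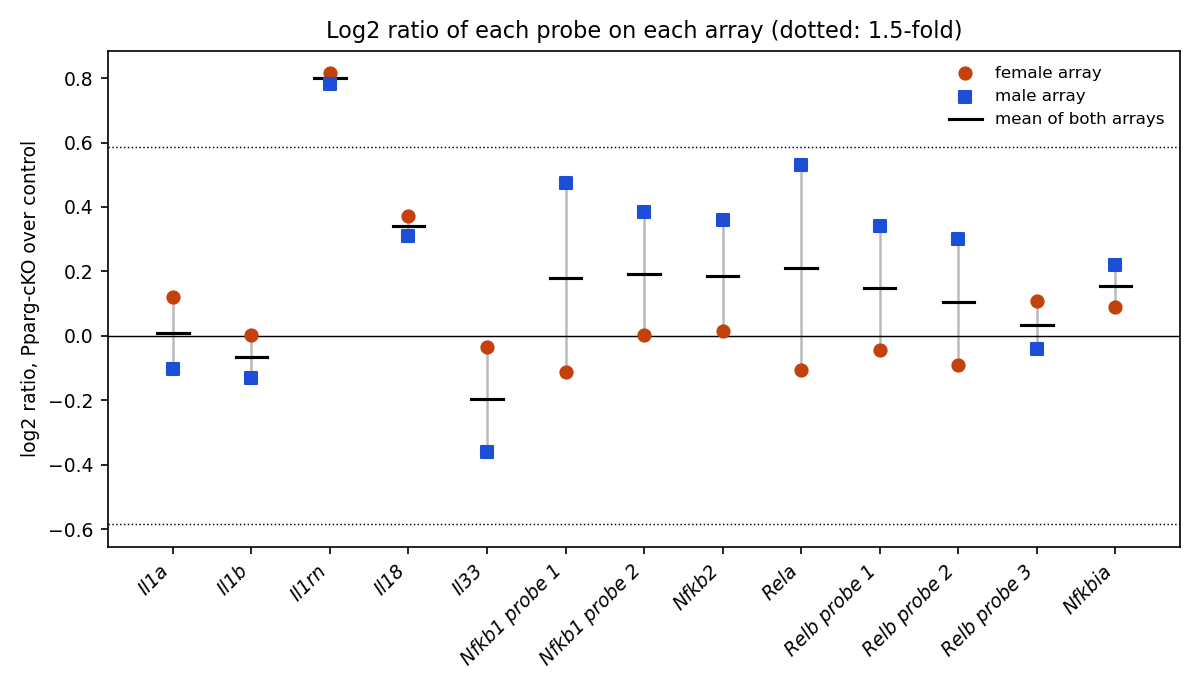
Log2 ratio of Pparg-cKO over control for each of the 13 probes on the female array (circles) and the male array (squares), with the mean of both as a bar and dotted lines at 1.5-fold. Il1rn lies above the dotted line on both arrays, and the probes of Nfkb1, Nfkb2 and Rela and the first pair of Relb probes lie near 0 on the female and between 0.30 and 0.53 on the male array.

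In Rela, Nfkb1, Nfkb2 and Relb, the NF-kappaB subunits among the 10 genes, the ratio on the male array lay above that on the female array. The remaining subunit, Rel (c-Rel), which is not among the 10 and is named here after its values were seen, did not have this pattern. It gave 269 ± 16.7 against 223 ± 15.0 units in females and 260 ± 18.1 against 251 ± 23.8 in males, with log2 ratios of 0.18 and 0.14 (adjusted p = 0.775, limma). Rela, the transactivating subunit p65, gave 1438 ± 69.1 units in the cKO and 1558 ± 29.6 in the control of females, and 2169 ± 51.6 against 1508 ± 29.4 in males. The male cKO pool was high and the other 3 pools were alike. Rela had log2 ratios of -0.11 and 0.53 in females and males (mean 0.21 ± 0.45, SD, n = 2; adjusted p = 0.844, limma). Nfkb1, the precursor of p50, gave 179 ± 18.8 against 195 ± 16.3 units in females and 265 ± 13.4 against 192 ± 11.0 in males with its brighter probe. Its log2 ratios were -0.11 and 0.47 (adjusted p = 0.868), and the second Nfkb1 probe gave 0.00 and 0.38. The male cKO pool was again the highest of the 4.

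Nfkb2 encodes p100, the precursor of p52, which pairs with RELB in the non-canonical pathway. It gave 76.5 ± 5.49 against 77.6 ± 3.17 units in females and 96.4 ± 3.91 against 74.2 ± 2.40 in males, from 3 kept spots per array. Its log2 ratios were 0.02 and 0.36 (adjusted p = 0.792, limma). Relb gave 168 ± 18.6 against 169 ± 16.9 units in females and 213 ± 17.9 against 177 ± 23.0 in males with its brightest probe. Its log2 ratios were -0.04 and 0.34 (adjusted p = 0.861, limma). The second Relb probe, which overlaps the first, gave -0.09 and 0.30. The third, designed on another transcript and located elsewhere in the gene, was dimmer and gave 0.11 and -0.04, so that the Relb probes did not agree.

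The male ratio exceeded the female ratio by 0.64 in Rela, 0.59 in Nfkb1, 0.38 in Relb and 0.34 in Nfkb2, on the log2 scale. This difference was smaller in 95.8%, 94.8%, 87.0% and 84.9% of the genes tested. It was positive for these 4 subunits and for Nfkbia but not for Rel, and for 55.2% of all genes tested, with a median over all genes of 0.03 and a 10th to 90th percentile range of -0.28 to 0.44. Relb and Nfkb2 lay inside that range and Rela and Nfkb1 above it. If the dye labels hold, these differences, their median and their range change sign, so that smaller reads larger, positive negative and above below. Under 6 other ways of processing the same spots, the male ratio stayed above the female ratio in Rela, Nfkb1, Relb and Nfkb2, with male ratios from 0.27 to 0.75 and female ratios from -0.19 to 0.03. With 1 array per sex, the difference between arrays could not be tested, and sex, dye orientation and array are the same contrast here.

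**Figure D3:**
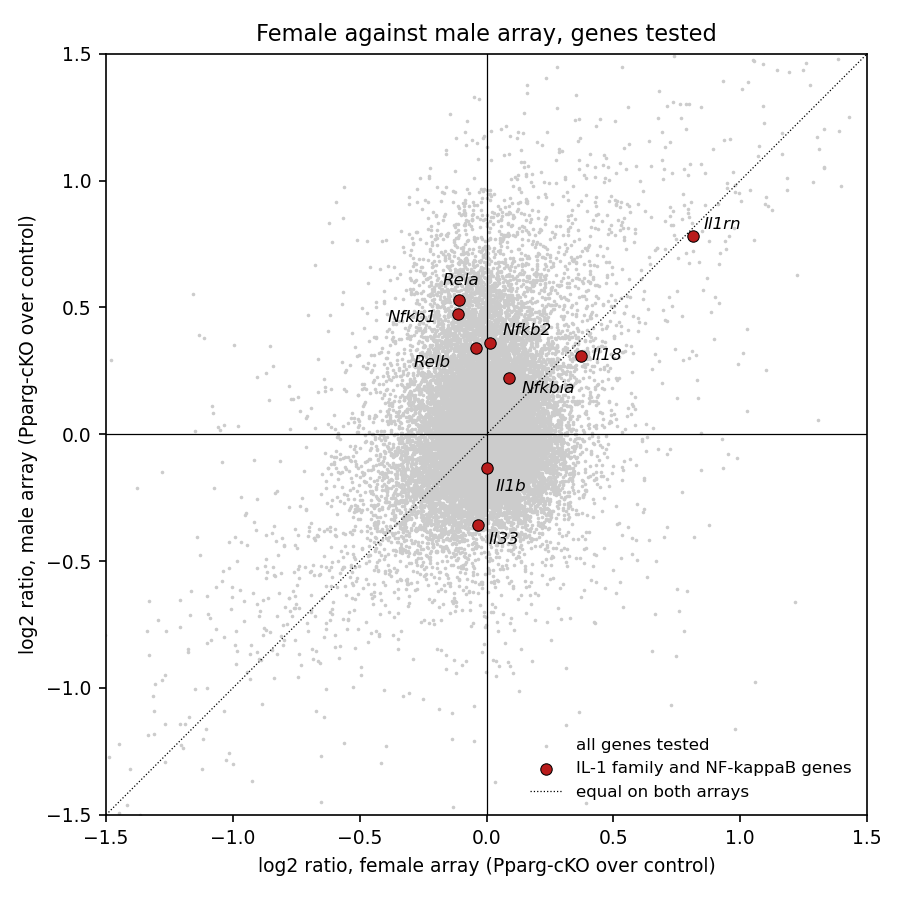
Log2 ratio of Pparg-cKO over control on the female array (horizontal) against the male array (vertical) for the 22499 genes tested (grey; 117 lie outside the plotted range) and the 9 IL-1 family and NF-kappaB genes tested (red), with the line of equal ratios dotted. Il1rn and Il18 lie close to this line, whereas Rela, Nfkb1, Relb and Nfkb2 lie above it near a female ratio of 0.

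Nfkbia encodes IkappaBalpha, which holds NF-kappaB in the cytoplasm and is itself a target of NF-kappaB. Its signal was 2281 ± 133 against 2141 ± 105 units in females and 2338 ± 101 against 1994 ± 73.9 in males. Both cKO pools lay above both control pools, from which again nothing is read, and in females the ranges of 1 SD over the spots overlapped. The log2 ratios of 0.09 and 0.22 had a mean of 0.16 ± 0.09 (SD, n = 2), which did not pass the test (adjusted p = 0.792, limma; 95% interval -0.12 to 0.43).

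To set these ratios beside the promoters of the genes, the 250 bases before each annotated start in RefSeq (GRCm38.p6) were searched for the kappaB consensus, the binding motif of NF-kappaB, and for a pair of AGGTCA half-sites in the same orientation with 1 base between them, the motif of PPARG with its partner RXR. Windows were available for 8 of the 10 genes, 13 windows in all, and were missing for Nfkb1 and Relb. Both strands were read. The kappaB consensus was present in 2382 of 32851 promoter windows (7.25%) and the half-site pair in 11 (0.0335%). Among the 13 windows, 4 held a kappaB match (3 of Nfkb2 and 1 of Nfkbia) and 0 held the half-site pair. Exact half-site pairs are so rare over all windows that their absence from 13 windows is not read as absence of a PPARG site. These 4 windows are shown because they hold the matches, which are in capitals on the strand of the gene (plus for Nfkb2, minus for Nfkbia) whichever strand the motif reads on.
Nfkb2 at chr19:46304487-46304736: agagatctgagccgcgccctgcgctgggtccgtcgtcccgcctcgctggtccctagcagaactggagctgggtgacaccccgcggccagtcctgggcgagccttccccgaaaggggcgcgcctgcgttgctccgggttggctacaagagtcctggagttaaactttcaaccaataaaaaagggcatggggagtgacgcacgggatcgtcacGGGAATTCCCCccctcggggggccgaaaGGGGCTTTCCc
Nfkb2 at chr19:46305445-46305694: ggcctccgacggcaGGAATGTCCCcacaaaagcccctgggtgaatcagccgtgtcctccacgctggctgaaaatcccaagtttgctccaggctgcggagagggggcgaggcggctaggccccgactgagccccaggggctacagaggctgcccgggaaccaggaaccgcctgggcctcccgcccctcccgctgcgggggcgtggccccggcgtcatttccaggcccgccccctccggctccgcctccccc
Nfkb2 at chr19:46305680-46305929: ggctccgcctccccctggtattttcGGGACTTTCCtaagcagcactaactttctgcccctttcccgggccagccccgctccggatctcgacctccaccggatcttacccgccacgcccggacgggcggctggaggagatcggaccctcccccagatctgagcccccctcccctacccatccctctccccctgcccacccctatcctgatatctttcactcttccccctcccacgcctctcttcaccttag
Nfkbia at chr12:55492648-55492897: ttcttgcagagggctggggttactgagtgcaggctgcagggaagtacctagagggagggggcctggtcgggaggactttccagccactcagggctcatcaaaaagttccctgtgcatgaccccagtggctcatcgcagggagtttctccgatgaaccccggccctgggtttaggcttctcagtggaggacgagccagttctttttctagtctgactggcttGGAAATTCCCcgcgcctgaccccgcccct
The first Nfkb2 window holds 3 matches, which begin 39, 38 and 11 bases before the start, the first pair overlapping. The second and the third window hold 1 match each, which begin 236 and 225 bases before their start, and the Nfkbia window holds 1 match that begins 29 bases before the start. A match describes letters in this window and not a bound site. The Nfkb2 ratio was 0.02 in females and 0.36 in males, and that of Nfkbia 0.09 and 0.22.

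The other genes of the pathway were described from lists of receptors, adaptors and kinases, other NF-kappaB and IkappaB genes, inflammasome and processing genes, and NF-kappaB targets, next to the remaining ligands. Of 90 such genes 88 were measured and 79 tested. Of these, 29 were higher on both arrays, 23 were lower on both and 27 differed in direction, where 26.6% of all genes were higher and 26.2% lower on both, and their median mean log2 ratio was 0.04. In limma 0 were called higher and 1 lower, beside 0.751% called of all genes, and 10 had an unadjusted p under 0.05, beside 8.51% of all genes. Of the 54 bright enough for the fold rule 1 was higher and 1 lower, beside 1.84% past it of all bright genes.

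Sele, which encodes the endothelial adhesion molecule E-selectin, was the gene called lower. Its signal was 35.1 in the cKO against 207 units in the control in females and 34.9 against 228 in males. The log2 ratios were -2.06 and -2.16, or 4.31-fold lower in the cKO (adjusted p = 0.00620, limma). Sele was called in 7 of 8 alternatives, and the call was lost with the deposited table (log2 ratio -2.64, adjusted p = 0.533, limma), in which 0 genes were called. The 3 endothelial markers were not lower, with mean log2 ratios from 0.12 to 0.35 and Cdh5 (VE-cadherin) as the highest. Their summed signal was 4834 in the cKO and 4547 in the control of females and 5279 against 4533 in males. Gadd45b, a stress-response gene, was the one past the fold rule as higher. It gave 657 against 366 units in females and 875 against 423 in males, with log2 ratios of 0.84 and 1.07, or 1.94-fold (adjusted p = 0.0510, limma; 0.00370 to 0.533 over 8 alternatives, with 4 past the threshold). Both genes are on the list of 32 NF-kappaB targets, of which 28 were tested, 9 were higher and 11 lower on both arrays, with a median of 0.04.

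**Figure D4:**
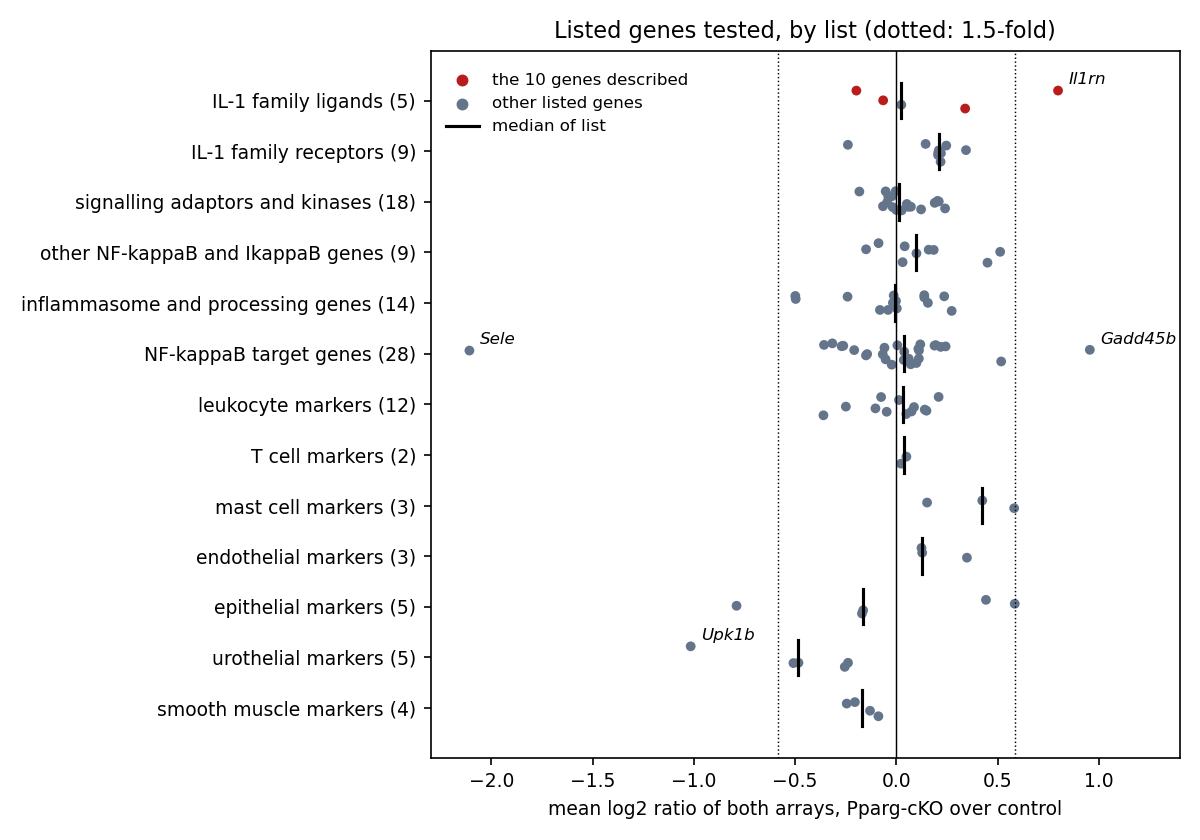
Mean log2 ratio of both arrays (Pparg-cKO over control) for the listed genes that were tested, by list, with the number tested in brackets, the median of each list as a black bar and dotted lines at 1.5-fold. The 10 genes described are in red (those of the IL-1 family appear on the ligand list). Sele, Gadd45b, Il1rn and Upk1b lie farthest from 0.

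Of the 9 IL-1 family receptors, 8 were higher in the cKO on both arrays, with a median mean log2 ratio of 0.21. Only 4 of the 9 were bright enough for the fold rule, and the count takes dim receptors like bright ones. As background for the counts of each list, 26.6% of all genes were higher and 26.2% lower on both arrays. Of the receptors, 0 were called in limma (1 with an unadjusted p under 0.05). That gene was Il1rl1, the IL-33 receptor, which gave 62.0 against 43.3 units in females and 69.3 against 52.9 in males, with log2 ratios of 0.36 and 0.33 (adjusted p = 0.428). The receptor lower on both arrays, named after its values were seen, was Il1rapl1 at a mean of -0.24. Of the 18 adaptors and kinases 4 were higher, 5 lower and 9 opposite, and 0 were called or had an unadjusted p under 0.05, with Irak4 farthest from 0 at 0.24. Of the 9 other NF-kappaB and IkappaB genes 4 were higher and 2 lower, and 0 were called. Bcl3, a nuclear IkappaB protein that binds p50 and p52, was the farthest from 0 at 0.51 (0.18 in females and 0.85 in males; adjusted p = 0.537). Its signal was 88.5 against 75.8 units in females and 159 against 86.1 in males, so that the male cKO pool was again the high one. Of the 14 inflammasome and processing genes tested 4 were higher and 4 lower, and 0 were called. Gsdmd, which forms the pores through which IL-1beta and IL-18 leave cells, was the farthest from 0 and lower at -0.53 and -0.47 (362 against 530 units in females, 339 against 495 in males; adjusted p = 0.209). Among the ligands, Il36rn, Il36a, Il36b, Il36g and Il1f10 were at background like Il1a.

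Of the marker lists, those of leukocytes, T cells and smooth muscle had medians of 0.03, 0.04 and -0.17. Farthest from 0 among their tested genes were S100a9 (-0.36), Cd3e (0.05) and Tagln (-0.24). The 5 epithelial markers did not move together, with 2 higher and 2 lower on both arrays and a median of -0.16. Krt18 was farthest from 0 at -0.79, whereas Epcam had log2 ratios of 0.41 and 0.48 and Cdh1 of 0.07 and 1.10, these last genes being named after their values were seen. The urothelial list had a median of -0.48, with Upk1b (-1.02, past the fold rule as lower) farthest from 0. Among the 3 mast cell markers Kit had the largest ratio at 0.58. In limma 0 of these marker genes were called, and between 0 and 3 per list had an unadjusted p under 0.05. The ratios of the IL-1 family and NF-kappaB genes therefore stand beside lower ratios of 4 of the 5 urothelial markers on both arrays, whose part in them was not tested.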

How the data were processed

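RNA pools from E18.5 ureters were compared on 2 two-colour Agilent arrays (Pparg-cKO against control; replicate 1 female, replicate 2 male), each from 200 ng of total RNA with 1 round of T7 amplification per the labels. Per the file headers, the deposited scanner files (Agilent Feature Extraction 10.7.3.1) held intensity on a linear scale, namely mean spot signal, local background (median) and a processed signal that was background-corrected and dye-normalised, and the log10 ratio of red over green. The authors' deposited table held a score, 1 signed fold change per probe and array, and its processing is not given in the sources used here. All its columns were mapped.

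Of 174979 spots per array, 157716 were not controls (39429 probes on 4 spots each), outlier flags removed 2.87% and 3.24%, and 0 were saturated. Background was corrected by normexp (offset 50) and ratios by loess in limma 3.58.1 (R 4.3.3). Log2 ratios were turned to Pparg-cKO over control by the deposited table. Spots were averaged, the brightest probe represented a gene, and the test was run on 22499 genes whose probe clearly exceeded background in 1 channel or both of each array (lmFit, eBayes, Benjamini-Hochberg). The fit found 169 genes. The fold rule found 258 of 14015 bright genes; it takes the thresholds (intensity of 100, 1.5-fold) from the study's methods, but their use on the stronger channel and on these normexp and loess ratios was chosen here. With 2 arrays, 1 residual degree of freedom and 4.00 prior degrees of freedom, p-values measure only the spread between these arrays, whose number limits the precision. Both arrays lay on 1 slide. Alternatives were other background, normalisation, probe and signal settings, the deposited table, and each array left out. Of the 13 probes, 12 matched a RefSeq transcript of the same symbol (GRCm38.p6), and positions of probes come from the design (mm9), whose exons were not analysed here. 

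The 10 genes, the gene lists and the tests were chosen with earlier results of these data known. The genes named are the 10, Pparg and the listed genes called in limma or past the fold rule. For a list with none, the tested gene farthest from 0 is named. Also named are the 3 genes closest to each of the 10 that passed a threshold, and markers of the tissue.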

Additional observations from a re-analysis of the deposited data

How the results depend on the processing

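The direction of the mean log2 ratio was kept for Il1rn, Il18, Il33, Nfkb1, Nfkb2, Rela, Relb and Nfkbia under 6 alternatives with a test. The ratio of Il1rn ran from 0.80 to 0.93 with adjusted p in limma from 0.00545 to 0.533, that of Il18 from 0.34 to 0.43 (0.388 to 0.952), and that of Il33 from -0.23 to -0.13 (0.694 to 1.00). Il1b was between -0.20 and 0, the latter in the deposited table, where its entry is no change on both arrays. Without an offset in normexp, limma called 571 genes in place of 169, 1 of the 10 genes in place of 0 (Il1rn, at 0.90) and 3 of the other pathway genes in place of 1. With every probe as a row, 1 of the 10 (Il1rn) and 2 other pathway genes were called. There were also 2 with flagged spots kept and with the median over all probes. The deposited table gave 0 genes and 0 pathway genes in limma. Without the filter on dim probes 94 genes were called. With a signal minimum of 200, 0 of the 10 genes met the fold rule. Leaving out either array left the fold rule with 444 to 1253 genes, 1 of the 10 in each case, and 2 to 4 pathway genes, with no test. Without replicate 2 the ratios of Nfkb1, Rela and Relb were below 0 (-0.11, -0.11 and -0.04), and Il1b was at 0.00. For the other settings the cause of a changed count was not tested. Il1a and Il1b are limited by signal over background. Each array ratio pairs the cKO and the control pool of 1 replicate number, so the limma fit on these ratios was itself the paired analysis.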
